A study of Homo sapiens with 8 samples.

Results

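The heat shock chaperones considered here are HSPA1A, HSPA1B and HSPA8 of the HSP70 family, the HSP110 protein HSPH1, the J-domain protein DNAJB1, the cytosolic HSP90 gene HSP90AA1, the mitochondrial chaperonin pair HSPD1 and HSPE1, the small heat shock protein HSPB1 and the cochaperone BAG3. Their accessibility was read from 38 of 129536 ATAC-seq peaks, namely every peak that overlapped a gene body or the 10 kb on either side (GRCh38). All 38 had enough counts to be tested, and 3 of them belonged to the windows of 2 of the genes. Omni-ATAC-seq marks open chromatin by inserting adapters with a transposase into the DNA of isolated nuclei. It was applied to HEK293 cells, a human embryonic kidney line, with the genotype eGFP-YAP in every library. The titles name only HEK293, while the series description places eGFP-YAP cells in this experiment and has them starved of serum for 1 h before the osmolyte was added. There were 4 vehicle libraries and 4 libraries from cells given 0.2 M sorbitol for 1 h, a hyperosmotic treatment that draws water out of cells. The library names give 0 h for the vehicle libraries, while the treatment protocol has controls collected in parallel, and the labels do not settle whether the time differed as well as the treatment. The labels name neither separate cultures nor clones, so p-values measure only the spread between these libraries, which may be technical.

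Heat shock proteins hold other proteins in a folded or foldable state. HSP70 and HSP90 proteins bind client proteins in cycles of ATP use, J-domain proteins deliver clients to HSP70, and HSP110 and BAG proteins release nucleotide from it. Many of these genes are induced by heat shock factor 1 (HSF1), which binds heat shock elements, arrays of inverted GAA units, and several are known for promoters that are already open in unstressed cells. Cells under hyperosmotic stress are known to induce HSP70 also through the tonicity-responsive factor NFAT5.

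Totals in peaks were 14757015 to 19831471 counts in vehicle libraries and 11522266 to 14355727 in sorbitol libraries, so depth differed with treatment without overlap; its part in the results was not tested. Libraries correlated at 0.956 to 0.974 within a group and at 0.925 to 0.939 between groups (Pearson, log2 scale, across peaks). Vehicle 4 and sorbitol 4 stood apart from the others on the next principal component after the one that separated the treatments (scores 61.7 and -66.3, the others -21.4 to 35.4), and results are also given without them where that matters. Of 7 genes chosen as HEK293 markers, 6 had a start peak (PAX8 had none), and among markers of blood, liver and gut, PTPRC, CD3E and ALB had none, whereas CDX2 (36.3 CPM) and VIL1 (9.60 CPM) did. CPM stands here for counts in proportion to a library total adjusted with a TMM factor (trimmed mean of M-values).

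Promoter sequences of some of these genes are given below. The first pair are the near-identical copies whose counts cannot be fully separated, and the next pair hold heat shock elements of 3 units. DNAJB1 has starts in 2 separate peaks and is shown at the upstream of the starts in the inner peak. Among the sequences shown, only that of HSPA1B lay under a peak called lower after sorbitol, by the test described below. Each sequence is the 250 bases before a RefSeq start in GRCh38.p14, 5′ to 3′ on the gene's strand, and capitals mark heat shock element letters. For HSPD1 only the element, in which 2 such elements overlap, and its surroundings are shown, 30 bases in all.
HSPA1A, chr6:31815293-31815542, plus strand: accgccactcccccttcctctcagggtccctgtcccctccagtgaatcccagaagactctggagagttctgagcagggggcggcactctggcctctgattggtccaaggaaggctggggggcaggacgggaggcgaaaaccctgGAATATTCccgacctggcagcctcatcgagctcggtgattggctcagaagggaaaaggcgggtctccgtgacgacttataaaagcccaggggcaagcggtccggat
HSPA1B, chr6:31827488-31827737, plus strand: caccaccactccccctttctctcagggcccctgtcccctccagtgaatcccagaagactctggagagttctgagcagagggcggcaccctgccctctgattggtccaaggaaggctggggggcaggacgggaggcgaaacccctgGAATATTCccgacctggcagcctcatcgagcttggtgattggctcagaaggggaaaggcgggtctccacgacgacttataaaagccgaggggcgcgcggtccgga
HSPA8, chr11:123062137-123062386, minus strand: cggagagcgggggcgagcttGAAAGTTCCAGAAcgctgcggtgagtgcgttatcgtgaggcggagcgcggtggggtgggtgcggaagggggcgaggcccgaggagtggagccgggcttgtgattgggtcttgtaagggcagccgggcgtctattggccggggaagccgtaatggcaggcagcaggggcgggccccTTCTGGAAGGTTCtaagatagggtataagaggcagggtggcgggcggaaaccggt
HSP90AA1 inner promoter, chr14:102087045-102087294, minus strand: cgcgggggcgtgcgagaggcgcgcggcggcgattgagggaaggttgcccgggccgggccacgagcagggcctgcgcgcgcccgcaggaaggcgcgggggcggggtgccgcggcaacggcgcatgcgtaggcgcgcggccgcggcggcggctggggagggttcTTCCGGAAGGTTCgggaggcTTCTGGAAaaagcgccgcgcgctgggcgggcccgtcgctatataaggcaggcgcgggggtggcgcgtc
DNAJB1 inner promoter, chr19:14518398-14518647, minus strand: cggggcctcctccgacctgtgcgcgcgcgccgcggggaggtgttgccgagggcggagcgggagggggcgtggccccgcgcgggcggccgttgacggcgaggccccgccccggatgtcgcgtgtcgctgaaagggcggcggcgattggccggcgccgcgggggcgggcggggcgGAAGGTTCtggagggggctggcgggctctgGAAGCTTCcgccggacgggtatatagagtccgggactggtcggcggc
HSPD1 element, chr2:197500060-197500089, minus strand: cattTTCTGGAAAGTTCTGGAAccgagcga

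Motifs were searched on both strands of the RefSeq promoter windows, 250 bases before to 50 after each start, as exact letters, and the 10 genes have 14 such windows. A heat shock element of 3 units (GAANNTTCNNGAA or TTCNNGAANNTTC) was present in 3 of these 14 windows and in 0.490% of all 35116 windows. HSPA8 held it at 2 places, beginning 230 and 55 bases before the start, HSP90AA1 held it 88 bases before its inner start, and HSPD1 held 2 overlapping copies beginning 245 and 240 bases before its inner start. The shorter form of 2 units (GAANNTTC or TTCNNGAA), which every longer element also contains, was present in 8 of the 14 windows, from 7 genes, against 13.5% of all windows. In HSPA1A and HSPA1B it begins 106 and 105 bases before the start, at the same place in both copies. The windows of HSPH1, HSPE1 and BAG3 did not hold these letters. The TATA box (TATAAA) was present in the HSPA1A and HSPA1B windows alone among the 14 and in 11.5% of all windows, and the GC box (GGGCGG) in 13 of 14 and in 45.0%. The CCAAT box (CCAAT) was present in 7 of 14 windows against 34.6%, and the core of the tonicity element that NFAT5 binds (TGGAAA, which can overlap a heat shock element) in 4 of 14 against 20.7%.

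Accessibility is given as TMM-scaled CPM in all values below. Tests are edgeR quasi-likelihood tests with Benjamini-Hochberg adjustment across the 129487 tested peaks, and the threshold is 0.05. Of the 38 chaperone peaks, 20 (52.6%) passed, 1 higher and 19 lower after sorbitol. The background was 29.1% of all tested peaks, of which 16.0% were higher and 13.1% lower. The median log2 fold change was -0.31 over the 38 peaks and 0.01 over all tested peaks. The groups did not overlap at 15 of the 38 (39.5%), 2 higher and 13 lower, against 26.3% of all tested peaks. The split of calls moved with the library scaling, to 4 higher and 16 lower with a loess offset, and to 4 higher and 12 lower with factors taken from peaks at gene ends. The latter raised the median of all tested peaks from 0.01 to 0.19. Background shares were counted in the main fit only, so counts from refits, here and below, have no share beside them. No chaperone peak called here changed sign under any of the 20 refits.

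The background differed with position. Start peaks, those that overlap a RefSeq promoter window, numbered 10 here, and 4 of them were lower and 0 higher. Among all 12795 tested start peaks 48.0% passed, 41.0% lower and 6.98% higher, so the count of these 10 was near its class. Their median log2 fold change was -0.09 against -0.19 for all start peaks. At an unadjusted edgeR p under 0.05 the number higher was also 0, and the DESeq2 Wald test called 4 lower and 0 higher. The groups did not overlap at 2 of the 10, against 44.8% of all start peaks. Of the other 28 chaperone peaks 15 were lower and 1 higher, and their median was -0.36. These 28 include 2 start peaks of other genes, LSM2 and SNHG32, both lower, whereas the background given next holds no start peak. Among all tested peaks that are no start peak 27.1% passed, 10.1% lower and 17.0% higher, with a median of 0.04. Of 13 peaks downstream of the genes, 9 were lower and 1 higher (median -0.51), against 33.7% called, 24.3% lower and 9.36% higher, among peaks up to 10 kb downstream of all protein-coding genes (median -0.16). The SNHG32 start is among these 9, while the downstream background leaves out start peaks. Of 10 peaks inside the genes, 4 were lower (median -0.29), against 28.8% called of such peaks in all protein-coding genes, 9.71% lower and 19.1% higher (median 0.06). Most of these 4 lie in the part of DNAJB1 upstream of its listed starts, which also lies inside TECR. Of 5 upstream peaks, 2 were lower and 0 higher, against 20.7% and 11.5% of upstream peaks in general, of which 32.2% passed. That upstream background leaves out start peaks and peaks inside protein-coding genes. The 2 lower peaks lie at the start of LSM2 and inside TECR, so both are of kinds it leaves out. These peaks lie in few loci and some lie at ends of other genes, so they are not independent of each other.

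**Figure D1:**
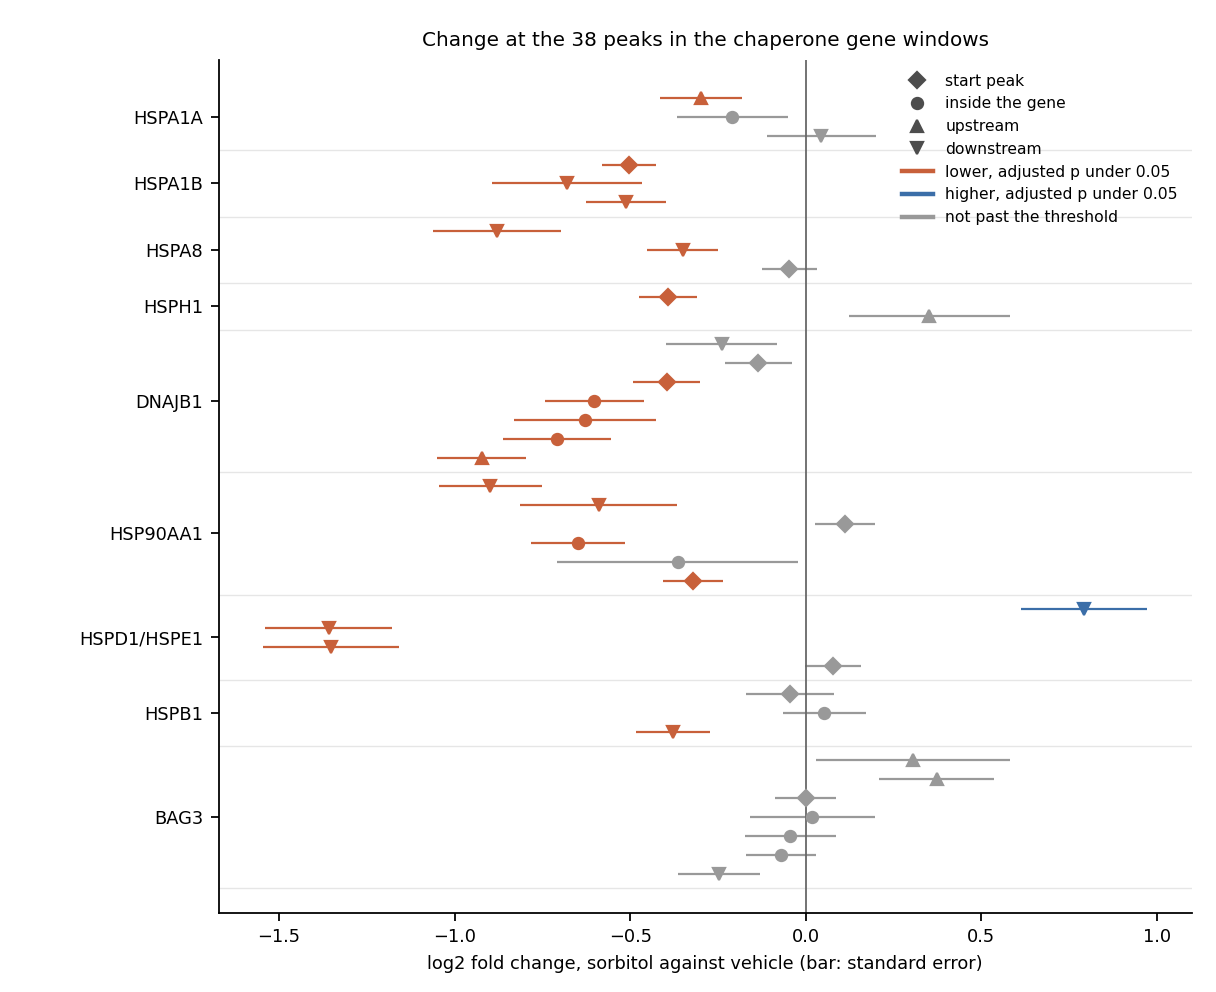
Log2 fold change of sorbitol against vehicle (x axis) at the 38 peaks in the chaperone gene windows, ordered by gene (y axis) and by position within it. Symbols give the place of a peak, bars the standard error, and colour the call at an adjusted p under 0.05: 19 peaks lie lower, 1 higher and BAG3 has none past the threshold.

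HSPA1A and HSPA1B encode the stress-inducible HSP70 proteins and lie side by side on chromosome 6. HSPA1B had the start peak (chr6:31826920-31828079), and it was the most accessible per length of the 10, with 57.0 CPM per kb over the 8 libraries, above 97.2% of all start peaks. Its level was 82.0, 80.2, 76.6 and 71.5 CPM in vehicle libraries 1 to 4, and 57.5, 56.1, 51.5 and 53.8 CPM in sorbitol libraries 1 to 4. Every sorbitol library was below every vehicle library. The means were 77.6 ± 4.62 and 54.7 ± 2.65 CPM (SD, n = 4), so it fell by 29.5% (log2 fold change -0.50, SE 0.08, edgeR adjusted p = 1.56e-06). Its direction was the same under each of the 6 scalings tried, but it missed the threshold with factors from unplaced contigs (-0.56, edgeR adjusted p = 0.0906), as did all 10 start peaks.

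HSPA1A (chr6:31815543-31817942) had no peak over its promoter window. Its own peak, chr6:31815832-31816901, begins 289 bp after the start inside the gene, where the deposited counts gave 6.80, 7.65, 6.40 and 9.44 CPM in vehicle libraries and 7.00, 4.66, 8.95 and 5.63 CPM in sorbitol libraries. These groups overlapped (log2 fold change -0.21, SE 0.16, edgeR adjusted p = 0.344). The 250 bases before the starts of both genes agree at 235 positions (93.6% of aligned bases), with 14 mismatches and 2 gap positions, and how reads that fit both copies were placed is not given in the sources used here. The level of either gene alone is therefore uncertain, and HSPA1A took only 7.66% to 11.7% of their summed counts in vehicle libraries and 7.67% to 14.8% in sorbitol libraries.

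The sum takes the only peak at each gene's start, and the 2 peaks cover different parts of the copies: the HSPA1B peak spans its promoter, the HSPA1A peak does not, so promoter reads placed on HSPA1A are in neither. Summed over both genes, the level was 88.8, 87.9, 83.0 and 80.9 CPM in vehicle libraries and 64.5, 60.8, 60.4 and 59.4 CPM in sorbitol libraries. Again no libraries overlapped. The sum fell by 28.0%, from 85.1 ± 3.78 to 61.3 ± 2.2 CPM (SD, n = 4; log2 fold change -0.47, SE 0.08, edgeR adjusted p = 3.08e-06). Elsewhere in the paired windows the change was uneven. The peak at the start of SNHG32, a noncoding RNA gene 4025 bp past the end of HSPA1B (chr6:31834279-31835270), fell from 17.2 ± 2.62 to 12.1 ± 1.42 CPM (SD, n = 4; log2 fold change -0.51, SE 0.11, edgeR adjusted p = 0.000552). The peak between the genes (chr6:31821317-31822049) had a log2 fold change of 0.04 and did not pass. The peak at the start of LSM2, an RNA-binding protein gene upstream of HSPA1A (chr6:31806187-31807331), passed narrowly at -0.30 (edgeR adjusted p = 0.0477). It missed the threshold in 14 of 20 alternatives, counting a threshold of 0.01. Among these were library totals, the loess offset (-0.18, edgeR adjusted p = 0.258), gene-end and contig factors and the DESeq2 Wald test. A mean of at least 50 counts and blocks on replicate or library name were also among them. The rest left out vehicle 1, vehicle 2, sorbitol 1, sorbitol 2 or sorbitol 4 (-0.15 without vehicle 1).

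**Figure D2:**
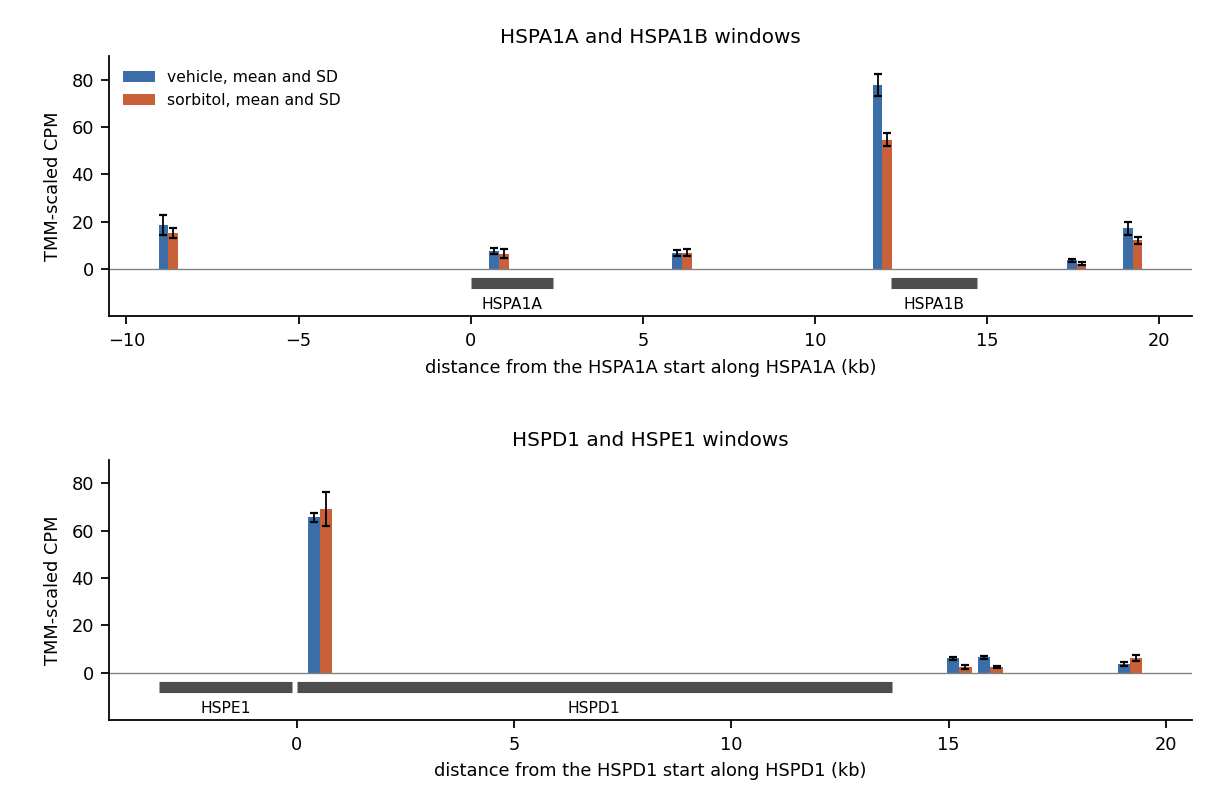
Mean TMM-scaled CPM (y axis, bars with SD, 4 libraries a group) of each peak along the HSPA1A and HSPA1B windows and the HSPD1 and HSPE1 windows, by distance in kb from the HSPA1A and HSPD1 starts (x axis). Bars are placed at peak centres and their widths are not to scale; the HSPA1B start peak is lower after sorbitol (77.6 to 54.7 CPM), the HSPD1 and HSPE1 start peak is not (65.6 to 69.1 CPM), and 2 weak peaks past the end of HSPD1 are lower.

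HSPA8 encodes the constitutively expressed HSP70 and carries the 2 full heat shock elements shown above. Its start peak (chr11:123061461-123063103) was among the strongest per length (43.4 CPM per kb, above 91.4% of start peaks). Vehicle libraries had 71.5, 81.0, 72.2 and 65.2 CPM and sorbitol libraries 69.8, 70.1, 67.1 and 73.6 CPM. The sorbitol values lay within the vehicle range. The log2 fold change was -0.05 with a 95% interval of -0.20 to 0.11 (edgeR adjusted p = 0.701), and only with the loess offset did the peak pass, as higher (0.16, edgeR adjusted p = 0.0485). Away from the start, both peaks past the end of HSPA8 fell. The one 3939 bp past it (chr11:123053166-123053550) went from 5.65 ± 0.654 to 3.06 ± 0.718 CPM (SD, n = 4; log2 fold change -0.88, SE 0.18, edgeR adjusted p = 0.000198), and the nearer one (chr11:123054231-123055208) fell by 0.35 on the log2 scale (edgeR adjusted p = 0.0063).

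HSPH1, an HSP110 protein that acts as a nucleotide exchange factor for HSP70, fell at its start peak (chr13:31160823-31162779, shared with the start of LOC105370148). Vehicle libraries had 52.0, 54.7, 52.5 and 50.2 CPM and sorbitol libraries 37.5, 39.5, 36.9 and 45.4 CPM. Sorbitol 4 was the highest of its group and still below every vehicle library. The means were 52.3 ± 1.87 and 39.8 ± 3.89 CPM (SD, n = 4), which is -0.39 on the log2 scale (SE 0.08, edgeR adjusted p = 0.000241). BAG3, the stress-inducible member of the BAG exchange factors, did not pass at any of its 7 peaks. Its start peak (chr10:119650879-119652772) had 42.1, 42.9, 38.1 and 36.3 CPM in vehicle libraries and 35.7, 43.6, 36.2 and 43.5 CPM in sorbitol libraries. Both groups averaged 39.8 CPM, and the 95% interval of the log2 fold change was -0.17 to 0.17 (edgeR adjusted p = 0.997). A change beyond 0.17 on the log2 scale in either direction is thus outside the interval at the BAG3 start under this scaling. An upstream peak 6538 bp before BAG3 had no overlap between groups (4.37 ± 0.646 and 5.65 ± 0.509 CPM, SD, n = 4) but missed the threshold (log2 fold change 0.37, edgeR adjusted p = 0.0803).

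DNAJB1 encodes a J-domain protein that delivers clients to HSP70, and the RefSeq promoter windows place its starts in 2 separate peaks on chromosome 19. The annotated gene body runs beyond both on the upstream side, to chr19:14560391, where no promoter window is listed. Outer thus means the farther of the listed starts. The outer start lies in a peak shared with the start of TECR (chr19:14528990-14530044), a gene of fatty acid elongation that runs the opposite way. Here vehicle libraries had 41.4, 41.7, 35.4 and 29.5 CPM and sorbitol libraries 28.9, 30.2, 24.4 and 28.9 CPM. Vehicle 4 was the lowest of its group and fell inside the sorbitol range. The level fell from 37.0 ± 5.79 to 28.1 ± 2.56 CPM (SD, n = 4; log2 fold change -0.40, SE 0.09, edgeR adjusted p = 0.00111). The inner start peak (chr19:14517737-14519027), over the promoter printed above, had 36.4, 34.0, 29.5 and 28.5 CPM in vehicle libraries and 30.2, 33.7, 24.0 and 28.8 CPM in sorbitol libraries. The groups overlapped, and the log2 fold change was -0.13 with a 95% interval of -0.32 to 0.05 (edgeR adjusted p = 0.301).

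The largest fall in the DNAJB1 window was at chr19:14564120-14565191, at the ends of TECR and NDUFB7. That peak is 3729 bp from the annotated gene and 34849 bp from its nearest listed start. It went from 14.1 ± 2.13 to 7.42 ± 0.623 CPM (SD, n = 4; log2 fold change -0.92, SE 0.13, edgeR adjusted p = 1.33e-07). The 3 peaks inside the annotated DNAJB1 body that are not start peaks fell by 0.60, 0.63 and 0.71 on the log2 scale. They lie upstream of the outer start, 7463, 22059 and 27263 bp from it. All of these peaks also lie inside TECR, so they cannot be assigned to DNAJB1 alone.

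HSP90AA1, the inducible cytosolic HSP90, also has 2 start peaks, an outer one shared with the start of WDR20 (chr14:102139040-102140957) and an inner one (chr14:102086572-102087867) that holds the heat shock element shown above. The outer peak had 52.3, 48.4, 52.2 and 42.6 CPM in vehicle libraries and 39.9, 42.9, 34.1 and 39.4 CPM in sorbitol libraries. Only sorbitol 2 reached the lowest vehicle library. It fell from 48.9 ± 4.58 to 39.1 ± 3.65 CPM (SD, n = 4; log2 fold change -0.32, SE 0.09, edgeR adjusted p = 0.00316), and missed the threshold with the loess offset (-0.14, edgeR adjusted p = 0.162) and with gene-end factors (-0.15, edgeR adjusted p = 0.135). The inner peak had 31.8, 30.2, 28.7 and 31.6 CPM in vehicle libraries and 30.4, 32.3, 32.5 and 36.7 CPM in sorbitol libraries. These overlapped, with a log2 fold change of 0.11 and a 95% interval of -0.06 to 0.28 (edgeR adjusted p = 0.356). It passed as higher with the loess offset (0.28, edgeR adjusted p = 0.00579) and with gene-end factors (0.29, edgeR adjusted p = 0.00352).

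Because the outer and inner starts of a gene are read in the same library, their ratio does not depend on the library factor. The ratio was examined after the single values had been seen. For HSP90AA1 the outer to inner ratio was 1.65, 1.60, 1.82 and 1.35 in vehicle libraries and 1.31, 1.33, 1.05 and 1.07 in sorbitol libraries, with no overlap. The mean ratio went from 1.60 ± 0.196 to 1.19 ± 0.149 (SD, n = 4). For DNAJB1 it was 1.14, 1.225, 1.20 and 1.04 in vehicle libraries and 0.956, 0.896, 1.01 and 1.00 in sorbitol libraries, again with no overlap. The mean went from 1.15 ± 0.0844 to 0.968 ± 0.0541 (SD, n = 4). On the log2 scale the mean ratio was lower after sorbitol by 0.43 and 0.25, a description with no test, since the ratios were formed because the outer peaks had passed and the inner ones had not. Each outer peak also holds the start of another gene.

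Further peaks around HSP90AA1 fell as well. The peak 2803 bp past its end (chr14:102077188-102077939), over the RNA pseudogene RN7SL472P, went from 9.85 ± 1.16 to 5.32 ± 1.04 CPM (SD, n = 4; log2 fold change -0.90, SE 0.15, edgeR adjusted p = 4.14e-06). A peak between the starts (chr14:102096283-102097009) fell by 0.65 on the log2 scale, and a weak one past the end (chr14:102078315-102078659) fell by 0.59.

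**Figure D3:**
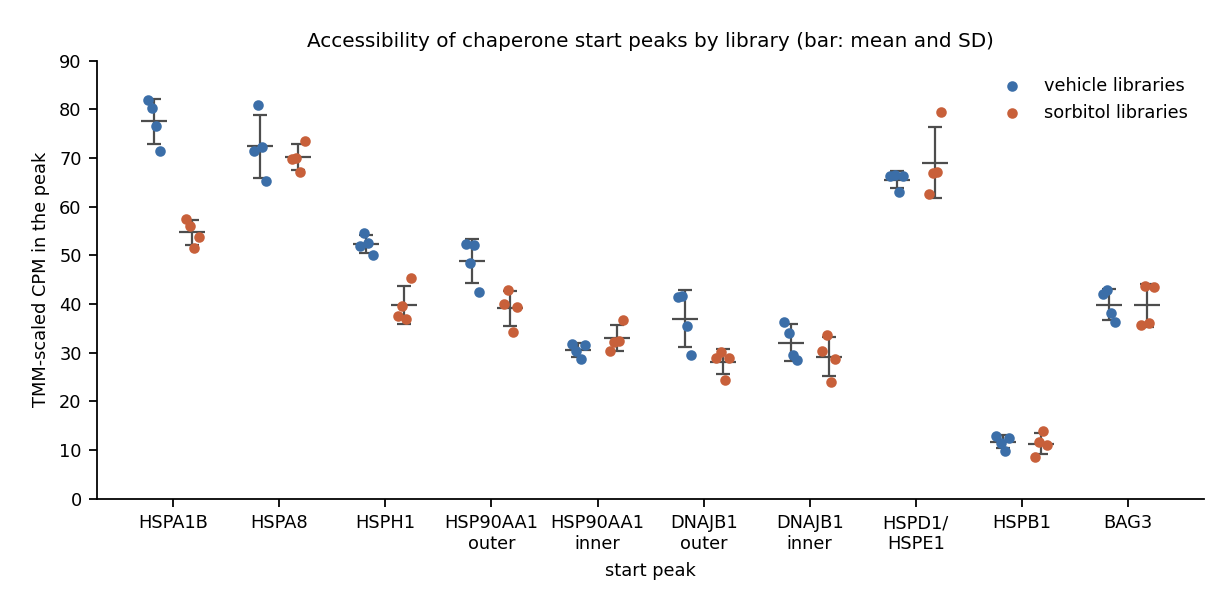
TMM-scaled CPM in each of the 10 chaperone start peaks (x axis), with 1 point per library (vehicle blue, sorbitol orange) and bars for the mean and SD of 4 libraries. Sorbitol libraries lie below all vehicle libraries at HSPA1B and HSPH1, overlap them at the outer starts of HSP90AA1 and DNAJB1, which also fell, and overlap them at the 6 start peaks that did not pass.

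HSPD1 and HSPE1 encode HSP60 and HSP10, the barrel and the lid of the mitochondrial chaperonin, and are transcribed away from each other from a shared region. A single peak covered both starts (chr2:197498838-197500649, which also holds the start of HSPE1-MOB4) and was the only HSPE1 peak. Vehicle libraries had 66.4, 66.6, 63.0 and 66.3 CPM and sorbitol libraries 62.6, 67.0, 67.1 and 79.6 CPM. Sorbitol 4 was the highest of all libraries, and without it the log2 fold change went from 0.08 (95% interval -0.08 to 0.23, edgeR adjusted p = 0.506) to -0.0104. It passed as higher with the loess offset (0.28) and gene-end factors (0.25).

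In contrast to this shared start, the largest changes in any chaperone window lay just past the end of HSPD1. At chr2:197483963-197484655, 1929 bp past the end, vehicle libraries had 6.26, 7.23, 5.62 and 6.91 CPM and sorbitol libraries 2.00, 2.41, 2.76 and 2.89 CPM. Mean levels were 6.50 ± 0.714 and 2.51 ± 0.398 CPM (SD, n = 4), a fall of 61.0% (log2 fold change -1.36, SE 0.18, edgeR adjusted p = 5.96e-08). The neighbouring peak 1260 bp past the end (chr2:197484725-197485324) had 6.80, 5.54, 6.19 and 5.47 CPM in vehicle libraries and 2.17, 1.79, 3.52 and 1.99 CPM in sorbitol libraries. It fell by 60.8% (log2 fold change -1.35, SE 0.19, edgeR adjusted p = 3.31e-07). Neither peak had overlapping groups, and they were the only 2 of the 38 changed at least 2-fold, against 6.15% of all tested peaks. Another peak, 5134 bp past the end (chr2:197480734-197481450), was the only chaperone peak called higher and is named after its value was seen. It went from 2.31, 3.92, 4.38 and 3.56 CPM in vehicle libraries to 7.25, 7.08, 4.52 and 5.98 CPM in sorbitol libraries, a log2 fold change of 0.79 (SE 0.18, edgeR adjusted p = 0.000636). Peaks past the end of HSPD1 thus changed in both directions within a few kb.

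HSPB1 encodes HSP27, a small heat shock protein that holds unfolded clients without using ATP. Its start peak was the least accessible per length of the 10 (11.6 CPM per kb, above 19.6% of start peaks). Vehicle libraries had 12.9, 11.4, 9.85 and 12.5 CPM and sorbitol libraries 8.58, 11.7, 13.8 and 10.99 CPM. The sorbitol values spanned the vehicle range (log2 fold change -0.05, 95% interval -0.29 to 0.20, edgeR adjusted p = 0.827). A peak 9963 bp past its end (chr7:76314255-76314719) fell from 17.6 ± 1.39 to 13.5 ± 1.15 CPM (SD, n = 4; log2 fold change -0.38, SE 0.11, edgeR adjusted p = 0.00481).

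Summing all counts in each window gave 1 value per gene, fitted over 44898 RefSeq loci. Of the 10 chaperone loci 6 were lower and 0 higher, against 38.5% lower, 12.6% higher and 51.1% called in all among tested loci. The split became 4 lower and 3 higher with the loess offset, and likewise 4 and 3 with gene-end factors. Shares of all loci under these scalings were not counted. The number higher was also 0 at an unadjusted edgeR p under 0.05 and by the DESeq2 Wald test. The groups did not overlap at 5 of the 10 loci, against 43.3% of loci. The HSPA1B locus fell by 27.7% and the HSPA1A locus by 24.5%, but the HSPA1A window contains the HSPA1B start peak. With the union of both windows counted once, the level fell from 131.4 ± 11.6 to 97.8 ± 3.51 CPM (SD, n = 4; log2 fold change -0.43, SE 0.06, edgeR adjusted p = 2.69e-09). The DNAJB1 locus had a log2 fold change of -0.41, HSPH1 -0.35 and HSP90AA1 -0.26. HSP90AA1 missed the threshold with the loess offset (-0.07, edgeR adjusted p = 0.193) and with gene-end factors (-0.08, edgeR adjusted p = 0.13). HSPA8 passed at -0.14 (edgeR adjusted p = 0.0405) and missed the threshold without any of vehicle 1, vehicle 2, vehicle 3, sorbitol 2 or sorbitol 3 (-0.18 to -0.10 over single libraries left out). HSPB1 missed it at -0.15 (edgeR adjusted p = 0.077) and passed without vehicle 3 (-0.19) or sorbitol 4 (-0.19). HSPD1 (-0.02), HSPE1 (0.08) and BAG3 (-0.03) did not pass. HSPE1, a locus of 1 peak, passed as higher with library totals alone, the loess offset, gene-end factors and a mean of at least 50 counts (0.16 to 0.28), and had -0.00984 without sorbitol 4. HSPD1 and BAG3 passed as higher with the loess offset (0.17 and 0.16) and with gene-end factors (0.15 each).

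**Figure D4:**
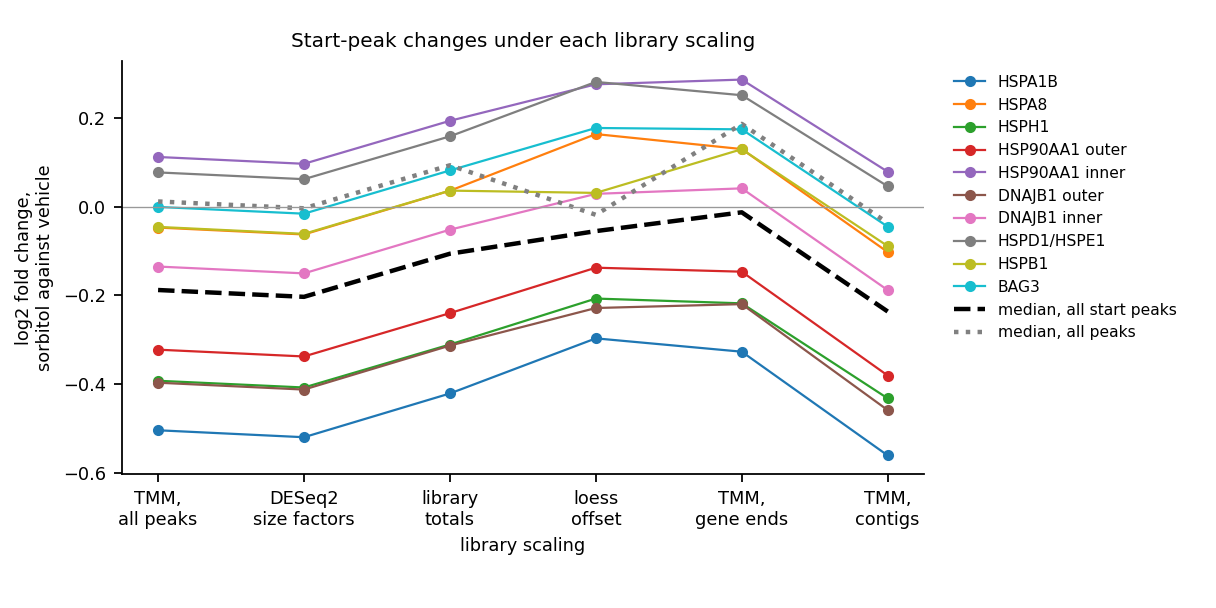
Log2 fold change of sorbitol against vehicle (y axis) for the 10 chaperone start peaks under 6 library scalings (x axis), with the median of all start peaks (dashed) and of all peaks (dotted). Most scalings move all peaks and both medians together, by 1 factor per library; the median of all start peaks lies at -0.19 with TMM factors from all peaks and at -0.01 with gene-end factors.

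The scaling set where 0 lies. The median of all start peaks was -0.19 with TMM, -0.06 with the loess offset, -0.01 with gene-end factors and -0.24 with contig factors. HSPA1B, HSPH1, the outer DNAJB1 and the outer HSP90AA1 start peaks were below that median under the 6 scalings and the other 6 were above it, but all scalings except the loess offset shift every peak and the median nearly alike. The order within the 10 changed with the loess offset: HSPA8 and HSPB1, both at -0.05 with TMM, had 0.16 and 0.03. Start peaks called higher numbered 3 with the loess offset and 2 with gene-end factors, beside 3 called lower in each. The share of all start peaks called under either scaling was not counted, so these splits cannot be set against their class.

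Other genes of protein folding were taken from lists of 71 genes. Of these, 63 had a start peak, or for genes without a promoter window a peak within 1 kb of a gene end, 69 peaks in all. Among them 38 were lower and 3 higher (median -0.25), against 41.0% and 6.98% of all start peaks (median -0.19). The split became 15 lower and 8 higher with the loess offset, and 17 lower and 9 higher with gene-end factors. Shares of all start peaks under these scalings were not counted. Among other HSP90 genes and cochaperones 11 of 15 peaks were lower and 0 higher, among other HSP70 and HSP110 genes 8 of 12 were lower and 1 higher, and in the cytosolic chaperonin TRiC 6 of 9 were lower and 1 higher. Of other J-domain genes 6 of 17 peaks were lower, of other BAG genes 4 of 5, and of heat shock factors and other heat shock targets 4 of 10 were lower and 1 higher. Of 8 other small heat shock protein genes only 2 had a peak, and neither passed.

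The smallest p-values among lower peaks belonged to CCT3, a TRiC subunit whose peak also holds the start of TSACC (log2 fold change -0.69, edgeR adjusted p = 6.3e-09), to STUB1, the ubiquitin ligase CHIP that works with HSP70 and HSP90, and to BAG6 (-0.65, edgeR adjusted p = 1.81e-07). The STUB1 peak lies at the start of JMJD8 and went from 40.3 ± 2.37 to 24.4 ± 2.21 CPM (SD, n = 4; log2 fold change -0.72). STUB1 had no promoter window, so this peak was taken as lying near a gene end and cannot be assigned to STUB1 alone. Of the other peaks near its ends, chr16:680083-680502 was lower (log2 fold change -0.77, edgeR adjusted p = 3.33e-06). The peak at chr16:679111-679708 did not pass (-0.03, edgeR adjusted p = 0.893). Peaks called higher included those at HSPA12A, a distant HSP70 relative (log2 fold change 0.21, edgeR adjusted p = 0.0449), and at CCT4, another TRiC subunit, in a peak shared with COMMD1 (0.21, edgeR adjusted p = 0.048). Groups overlapped at both, and 0 of these lists' peaks were called higher by the DESeq2 Wald test.

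The start peaks whose pattern over the 8 libraries was most like the summed HSPA1A and HSPA1B peaks, among 11804 with a mean of at least 50 counts, were those of ZNF77 (Pearson r = 0.997), DCTPP1 (0.996) and PEX13 with PUS10 (0.995). This is a description over 8 libraries that share a difference between groups, and libraries of a group share depth and treatment.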

How the data were processed

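Omni-ATAC-seq of 4 vehicle and 4 sorbitol libraries was analysed from the 1 table that the authors deposited, which holds raw counts for 129536 shared peaks, whole numbers with no normalization. The submitters' processing notes list Trim Galore 0.6.10, BWA 0.7.17, SAMtools 1.22, Picard, MACS2 2.2.9.1, bedtools and DESeq2, without roles, and name GRCh38. Whether reads or fragments were counted, how peaks were merged and how reads that fit several places were treated is not given in the sources used here. Columns were matched to samples by group and replicate number in their names. PCR copies without molecular identifiers are not independent molecules, so counting intervals would cover counting error only. Coordinates are 1-based.

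The members and gene lists were chosen with earlier results of these data known. Peaks were assigned to genes by an overlap of at least 1 base with RefSeq bodies and 10 kb flanks (GRCh38.p14). A start peak overlaps a RefSeq promoter window, 250 bases before to 50 after a start. Genes without a window took peaks within 1 kb of a gene end, and for the HSPA1A and HSPA1B sum the HSPA1A peak just inside the gene stood in for a start peak. The filterByExpr rule at its usual settings (10 counts in enough libraries, 15 in total) dropped 49 peaks, and 129487 were tested. Tests used R 4.3.3 and edgeR 4.0.16 with TMM factors, treatment as the only term and all 8 libraries. Standard errors were derived from the F statistic. Loci were tested on summed counts with the factors of the peak table. Named are each member's start peaks, its called peaks of at least 2-fold change, and its called peak away from the start with the smallest p-value, as well as the 3 smallest p-values in each direction among other chaperone genes and the 3 start peaks most correlated with the HSPA1A and HSPA1B sum. Some items that fall under this rule or the marker lists are not reported here. On simulated counts for 129487 peaks with 200 changed 2-fold, the peak test recovered 153 with 6 false calls. All other simulated peaks were unchanged. The check therefore does not show how the test does with smaller changes, with many peaks changed or with another library scaling.

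Deviations of same-numbered libraries from their group means correlated at -0.148 to 0.00768. Differently numbered libraries were not compared, so these values cannot show whether the replicate numbers pair the libraries. Alternatives were DESeq2 1.42.0 size factors and Wald test, library totals, a loess offset, TMM factors from gene-end or contig peaks, other filters, thresholds and windows, replicate blocks, and leaving out each library. Leaving out vehicle 4 and sorbitol 4 together, and the ratio of outer to inner start peaks, were added after the values were seen. No genome sequence was at hand, so GC content was not examined.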

Additional observations from a re-analysis of the deposited data

Results flagged for a closer look

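Among 100 groups of 4 libraries examined over these peaks and loci, 4 had 1 library far from the other 3, where chance gives about 1 in 20. At the peak 8583 bp past the end of BAG3 (chr10:119686402-119687123), the level was 15.5 CPM in sorbitol 4, and no higher than 11.4 CPM in the other sorbitol libraries. At the shared start peak of HSPD1 and HSPE1, the level was 63.0 CPM in vehicle 3 and 66.3 to 66.6 CPM in the rest of its group, and the HSPE1 locus, which consists of this peak alone, repeats that value. In the HSPA1A locus, sorbitol 4 was lowest at 78.2 CPM, the rest of its group lay at 84.5 to 85.6 CPM, and every value of the group was below every vehicle library.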

How the results depend on the processing

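Of 18 named peaks, 5 stayed past the threshold with the same sign in every refit: the far peaks past the ends of HSPA8 and HSP90AA1, both lower peaks past the end of HSPD1, and the peak at the TECR and NDUFB7 ends. With factors from contig peaks, 8 chaperone peaks passed, 7 of them lower, with 0 start peaks, 0 loci and 5 of the other chaperone genes' start peaks, 5 lower and 0 higher, and the summed HSPA1A and HSPA1B start peaks had -0.53 (edgeR adjusted p = 0.112); the cause was not tested. In narrower windows (body and 1 kb, or body only) there were 20 peaks, of which 8 passed, all 8 lower and 0 higher. These are the 10 start peaks and the 10 peaks inside the genes, classes with unlike backgrounds. Of all start peaks 48.0% passed, 41.0% lower and 6.98% higher. Of peaks inside all protein-coding genes that are no start peak, 28.8% passed, 9.71% lower and 19.1% higher. Over all tested peaks of every class the share was 29.1%, 13.1% lower and 16.0% higher. The narrower windows leave out the upstream and downstream peaks, and the cause of the difference was not tested. Chaperone peaks called higher numbered 2 with library totals alone, 4 with the loess offset, 4 with gene-end factors and 3 with a mean of at least 50 counts, and those called lower numbered 12 with gene-end factors. Start peaks called higher numbered 3 (loess), 2 (gene-end factors) and 1 (count minimum), and loci called higher 1 (totals), 3 (loess), 3 (gene-end factors) and 1 (count minimum). For the other chaperone genes 23 passed with loess, 8 higher and 15 lower, and 26 with gene-end factors, 9 higher and 17 lower. Those called higher numbered 1 with DESeq2 size factors, 5 with totals, 6 with the count minimum, 0 with the DESeq2 Wald test, 0 at a threshold of 0.01, and 1 without vehicle 4 and sorbitol 4. The cause was not tested, and no background share was counted for these refits.

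Values that changed sign included the HSPA8 locus, called lower at -0.14 in the main comparison, and the HSPB1 locus (-0.15) and inner DNAJB1 start (-0.13), which were not called; the others lay between -0.05 and 0.08. The cause was not tested. The BAG3 start peak had 0.0815 (totals), 0.177 (loess), 0.174 (gene-end factors), 0.0915 (count minimum) and 0.00192 (block on the first number of the library name). The HSPA8 start peak had 0.0358, 0.163 (edgeR adjusted p = 0.0485), 0.130 and 0.0461 under the first 4 of these, and HSPB1 0.0361, 0.0309, 0.129 and 0.0461. The inner DNAJB1 start had 0.0288 (loess) and 0.0411 (gene-end factors). Without vehicle 4 and sorbitol 4 the HSPD1 and HSPE1 start peak had -0.00514 and the HSPE1 locus -0.00468. With loess and gene-end factors the HSPA8 locus had 0.0508 and 0.0351 and the HSPB1 locus 0.04997 and 0.0221. Under totals, loess, gene-end factors and the count minimum, the HSPD1 locus had 0.0583, 0.174, 0.151 and 0.0682, and the BAG3 locus 0.0526, 0.160, 0.146 and 0.0628; loess and gene-end values of both loci passed.

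Leaving out each library gave 17 to 20 chaperone peaks, 16 to 19 of them lower, 4 start peaks each time, 5 to 7 loci, 32 to 42 start peaks of the other chaperone genes (0 to 2 higher, 30 to 40 lower) and -0.51 to -0.45 for the HSPA1A and HSPA1B sum. Ranges that crossed 0 were -0.0580 to 0.0406 (BAG3 start), -0.0942 to 0.0101 (HSPA8 start), -0.0104 to 0.115 (HSPD1 and HSPE1 start), -0.159 to 0.0535 (HSPB1 start), and for loci -0.0994 to 0.00641 (HSPD1), -0.00984 to 0.116 (HSPE1) and -0.0804 to 0.00624 (BAG3). With the replicate number as a block, 19 chaperone peaks passed, all among the 20, and 1 peak of the other chaperone genes was higher. Whether the numbers pair the libraries was not settled. Depth limits the weak peaks: the 2 that changed at least 2-fold had 2.37 and 2.51 CPM after sorbitol.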
